A study of Mus musculus with 51 samples.

Results

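Cartilage matrix genes were followed through mouse limb development as a list of 34 genes that encode the structural proteins of cartilage, or enzymes, transporters and regulators that help to build it. The members were found by gene symbol among 18194 genes on Affymetrix Mouse Genome 430 2.0 arrays, and 33 of the 34 were measured. Xylt1, which starts the sugar chains of proteoglycans, was not measured by a probe set with a single symbol. All values are log2 of the deposited intensity, taken as the mean of a gene's probe sets, so that a difference of 1 is a doubling. The level of a gene is not set against that of another, since probe sets differ in brightness.

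Forelimb buds, hindlimb buds and whole embryos came from wild-type FVB mice, untreated and without an engineered allele, and each of the 51 arrays held RNA from 1 embryo. There were 3, 5, 4, 5 and 5 forelimb arrays from E9.5 to E13.5, 4, 5, 5 and 5 hindlimb arrays from E10.5 to E13.5, and 2 whole embryo arrays at each of the 5 stages. The limb replicates of a stage came from a single litter, so stage and litter cannot be told apart, and p-values measure the spread between littermates. Both limbs of an embryo may have been used, and the labels do not say which forelimb and hindlimb arrays share an embryo. Whole limb buds were used, and in such bulk samples more cartilage cells and more RNA per cell cannot be told apart.

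Limb cartilage forms when loose mesenchyme gathers into condensations that prefigure the bones. The cells become chondrocytes and surround themselves with a gel of collagen fibrils, which resist tension, and aggrecan, a proteoglycan whose sulfated sugar chains hold water. Sox9, together with Sox5 and Sox6, switches on many of these genes, and the forelimb bud forms before the hindlimb bud.

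The 38 limb arrays of E10.5 to E13.5 and the other 13 arrays (10 of whole embryo and 3 of E9.5 forelimb) differed as sets. The bacterial Dap control read 3.04 to 3.63 in the 38 and 10.7 to 13.3 in the 13, and the Gapdh 3′ probe set exceeded the 5′ one by at most 0.16 in the 38 and by at least 1.48 in the 13. Limb stages from E10.5 on lie within 1 set, whereas set and tissue cannot be told apart when these limbs are compared with whole embryo. On 2 arrays the title and the other labels disagreed, and both were placed by title. The array titled hindlimb E11.5 replicate 5 read 10.65 for Pitx1, a hindlimb gene, and that titled forelimb E12.5 replicate 5 read 5.52, where the other hindlimb arrays spanned 9.81 to 10.87 and the other forelimb arrays 4.47 to 5.60. These values bear on the type of limb and not on the stage. Hindlimb E10.5 replicate 3 stood apart in the neural gene Sox2, at 9.04 against 2.98 to 4.01 in the other E10.5 limb arrays, and in the muscle gene Actc1, at 10.3 against 4.61 to 8.86.

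Most cartilage matrix genes were strongly up-regulated in the forelimb between E10.5 and E13.5. Of the 33 members, 28 were called higher and none lower, where a call needed a fold change of 2 or greater and a Benjamini-Hochberg adjusted p under 0.001 in limma over all 18194 genes. The background was 5.43% of all genes called higher and 5.13% called lower, and no member was lower at an unadjusted p under 0.05. The median change of the members was 3.08. The largest rises were those of Epyc (6.16 ± 0.26, SE), Matn1 (6.13 ± 0.28), Mgp (5.95 ± 0.20), Matn4 (5.85 ± 0.21) and Cnmd (5.46 ± 0.30). The members were sorted by the earliest stage step at which they were called higher. In this way 17 rose early, from E10.5 to E11.5, 4 in the middle step, from E11.5 to E12.5, and 3 late, from E12.5 to E13.5. The other 9 had no called step, although 4 of them, Chad, Prelp, Creb3l2 and Wwp2, were called over the whole interval.

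**Figure D1:**
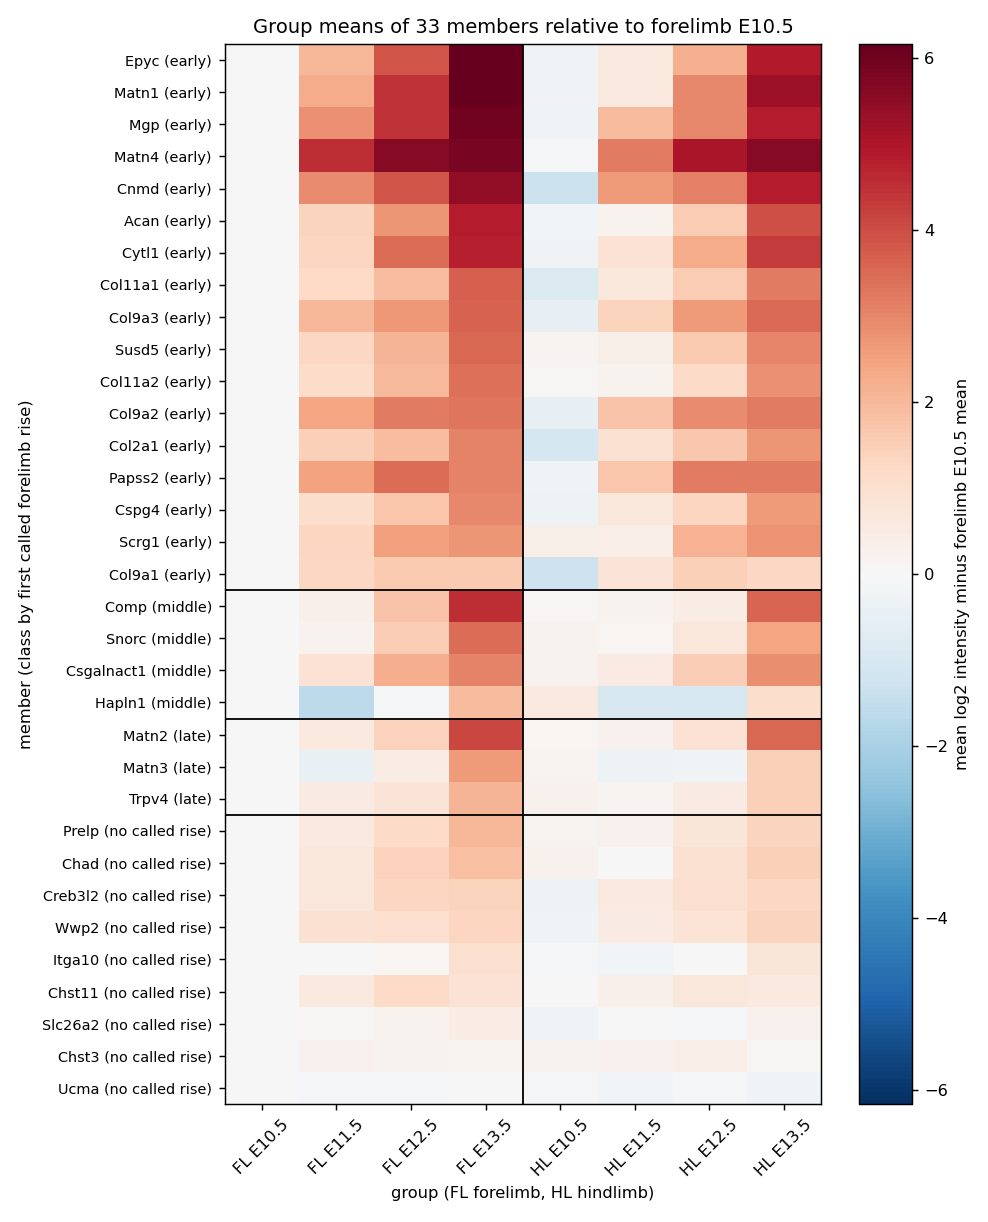
Mean log2 intensity of the 33 members in forelimb (FL) and hindlimb (HL) at E10.5 to E13.5, as the difference from the forelimb E10.5 mean (colour scale), with members grouped by the earliest forelimb step called. Early members, with Epyc reaching a rise of 6.16, change colour from E11.5 on in the forelimb, and the largest change from E10.5 to E13.5 among the 9 members without a called step is 2.05, for Prelp.

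The step from E10.5 to E11.5 called 17 members higher and 1 lower, against a background of 1.71% and 0.363%, with a median change of 1.09. From E11.5 to E12.5, 11 members were called higher and none lower, against a background of 0.599% and 0.165%, and from E12.5 to E13.5 there were 17 higher and none lower, against 1.42% and 1.29%. At an unadjusted p under 0.05, 0 and 2 members were lower in these later steps, and the medians were 0.80 and 1.18. Of the 17 early members, 7 were called higher again in the middle step and 11 in the late one. The 5 members called at all 3 forelimb steps were Acan, Matn1, Cytl1, Epyc and Mgp, of which the middle step of Acan was not called without forelimb E11.5 replicate 1 (1.12). At the earliest step the 4 forelimb E11.5 arrays lay above all 5 E10.5 arrays for 25 of the 33 members, which held for 12.1% of all genes.

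The collagens of cartilage fibrils were all early. Col2a1, the major fibril collagen, read 10.35, 9.90, 9.62, 9.71 and 10.29 on the forelimb E10.5 arrays and 11.02, 11.53, 11.70 and 11.55 at E11.5. At E13.5 it read 12.98, 12.90, 13.02, 13.18 and 13.18. These 3 stages did not overlap, and the rise was 1.48 ± 0.18 at the earliest step (adjusted p = 9.37e-09 in limma) and 1.18 ± 0.17 at the last. The increase from E11.5 to E12.5, 0.43 ± 0.18, was not called. Col11a1 and Col11a2 encode chains of collagen XI, which lies in the core of the same fibrils, and rose by 1.24 ± 0.13 and 1.14 ± 0.19 at the earliest step. The 3 chains of collagen IX, which coats the fibrils, were called at that step too, with Col9a1 at 1.27 ± 0.13, Col9a2 at 2.41 ± 0.23 and Col9a3 at 2.03 ± 0.15. At the last forelimb step Col11a1 and Col11a2 rose by 1.77 ± 0.12 and 1.39 ± 0.17. Col9a3, at 0.97 ± 0.14, was just under the fold threshold there, and Col9a1 and Col9a2 differed by -0.03 ± 0.12 and 0.10 ± 0.22. The 2 Col9a1 probe sets parted at the end, one going from 10.68 at E12.5 to 10.04 at E13.5 and the other from 12.17 to 12.74. The Col9a3 average includes 1 probe set that stayed near the bottom of the scale (2.93 at E10.5 and 3.11 at E13.5), while the other 2 moved from 5.47 to 10.98 and from 5.73 to 10.92. At the last step alone these 2 moved from 9.19 to 10.98 and from 9.70 to 10.92, and the dim one from 3.21 to 3.11.

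The matrilins, adaptor proteins that link collagen fibrils to other matrix components, ranged from early to late. Matn4 read 5.07, 4.53, 4.54, 4.80 and 5.46 in forelimb E10.5 and 9.20, 9.38, 9.5 and 9.56 at E11.5. The groups lay far apart, and this step of 4.53 ± 0.22 (adjusted p = 3.59e-20 in limma) was the largest of any member in any forelimb step. Matn1 was called at every step, with rises of 2.29 ± 0.30, 2.17 ± 0.30 and 1.67 ± 0.28. Matn2 read 3.59, 3.30, 3.46, 3.33 and 3.62 at E10.5 and 4.53, 4.75, 4.80, 5.14 and 5.24 at E12.5. It then rose by 2.67 ± 0.15 to between 7.24 and 7.91 at E13.5, its only called forelimb step. Matn3 was lower at E11.5, at 5.08, 4.95, 5.00 and 5.00, than at E10.5, where it spanned 5.19 to 5.55, and this difference of -0.44 ± 0.14 was not called. At E13.5 Matn3 read 8.05, 7.85, 8.06, 8.41 and 8.02, a called rise of 2.19 ± 0.14 over E12.5.

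Aggrecan and its partner took different courses. Acan, the core protein of aggrecan, read 4.95, 4.94, 4.86, 5.19 and 5.54 in forelimb E10.5, 5.69, 6.39, 6.89 and 6.86 at E11.5, and 9.76, 9.76, 9.91, 10.17 and 10.09 at E13.5. Its steps of 1.36 ± 0.24, 1.38 ± 0.24 and 2.11 ± 0.22 were all called. Hapln1, the link protein that fixes aggrecan to hyaluronan, was high in the early bud and dipped before it rose. It read 7.39, 7.62, 7.95, 7.92 and 7.34 at E10.5, 6.29, 6.15, 5.70 and 5.93 at E11.5, 6.67, 7.83, 7.51, 7.91 and 7.71 at E12.5, and 9.5, 9.35, 9.61, 9.89 and 9.59 at E13.5. The E11.5 arrays were the lowest and the E13.5 arrays the highest, with no overlap with the other stages. Hapln1 fell by 1.63 on the log2 scale (SE 0.17, adjusted p = 4.03e-10 in limma) at the earliest step, the single member call in that direction, and rises of 1.51 ± 0.17 and 2.06 ± 0.16 followed. The rise of 1.51 places Hapln1 in the middle class, although no E12.5 array exceeded the highest E10.5 array, at 7.95. All 4 Hapln1 probe sets had their lowest forelimb mean at E11.5 and their highest at E13.5.

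**Figure D2:**
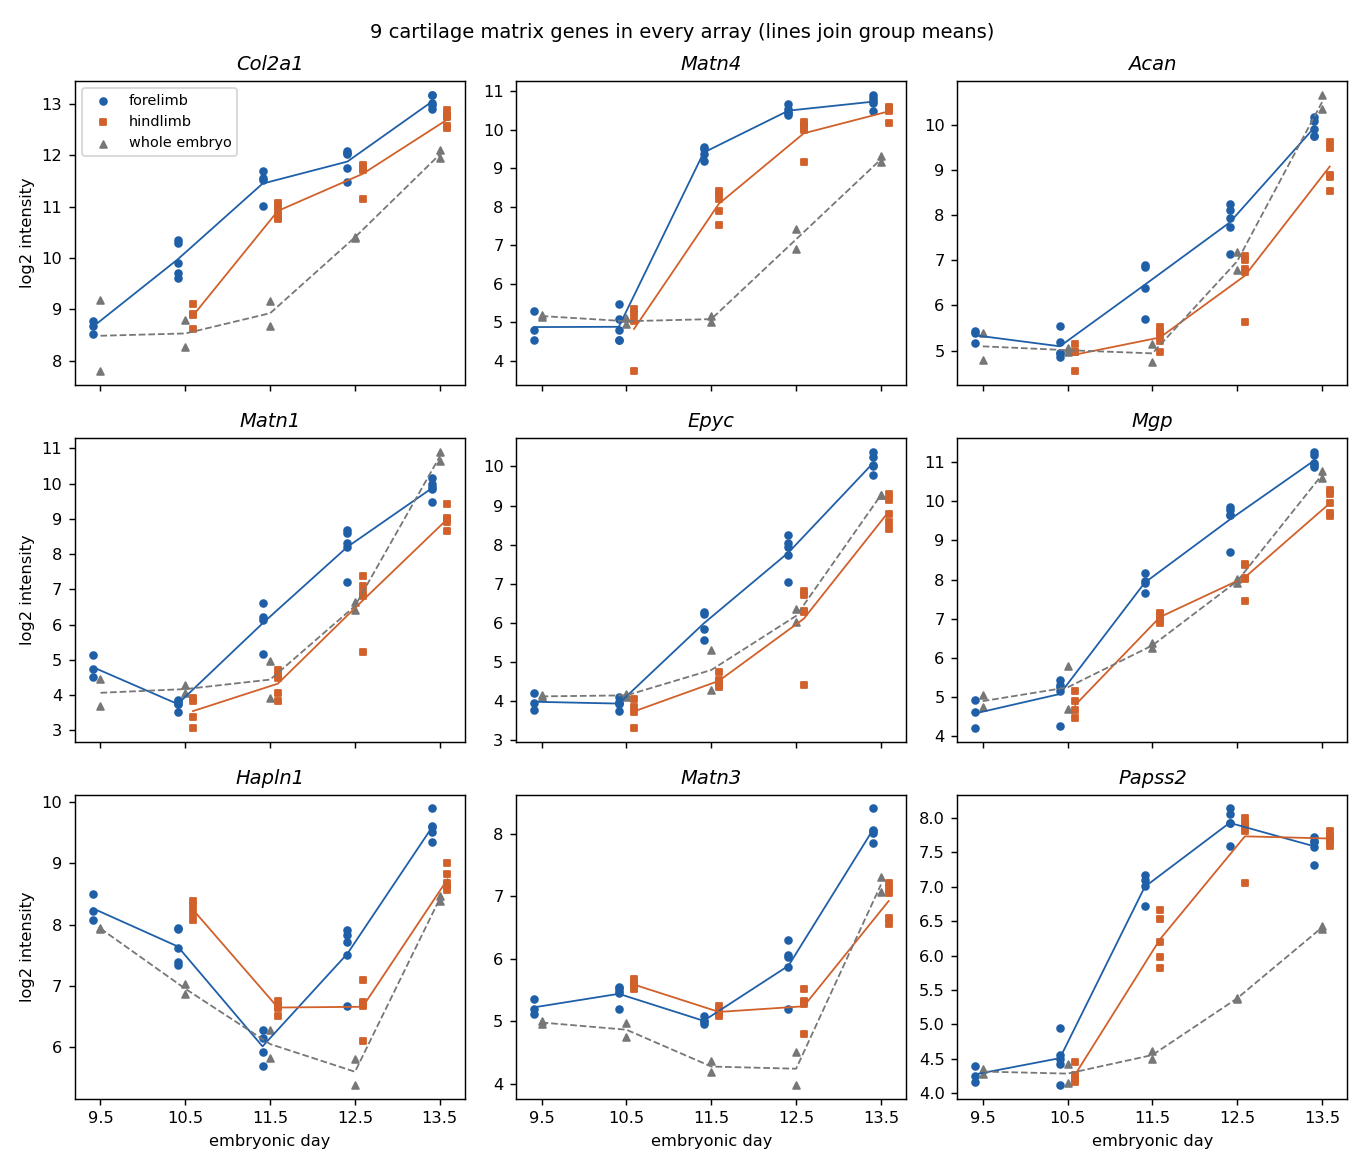
Log2 intensity of 9 members against embryonic day in every array (blue circles, forelimb; orange squares, hindlimb; grey triangles, whole embryo), with lines through group means. Matn4 rises by 4.53 between forelimb E10.5 and E11.5, Hapln1 falls and then rises, and the E9.5 forelimb and whole embryo points come from the second set of arrays.

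Among the smaller proteins secreted into the matrix or displayed on cells, most were early. Epyc, a leucine-rich proteoglycan of the growth plate, read 4.09, 3.94, 3.91, 3.73 and 3.98 at forelimb E10.5 and 5.57, 6.23, 6.27 and 5.85 at E11.5, without overlap, and stood at 9.77 to 10.38 at E13.5. Mgp, an inhibitor of mineralization, moved from 4.27 to 5.43 at E10.5 to 7.66 to 8.16 at E11.5, a rise of 2.84 ± 0.21. Cnmd (chondromodulin), which keeps vessels out of cartilage, rose by 2.92 ± 0.32. Its forelimb E10.5 arrays were the most scattered of any member at that stage, at 5.46, 6.09, 3.34, 3.78 and 6.35. Cytl1, a secreted protein of chondrocytes, Scrg1, Cspg4, a membrane proteoglycan, and Susd5 rose by 1.34 ± 0.21, 1.33 ± 0.19, 1.09 ± 0.13 and 1.27 ± 0.15 at the earliest step. Snorc, a small chondrocyte membrane proteoglycan, and Comp, a pentameric glycoprotein of cartilage and tendon, were called from the middle step on, where they rose by 1.31 ± 0.22 and 1.40 ± 0.22. Comp read 4.89, 6.37, 5.62, 6.92 and 6.33 at forelimb E12.5, a wide spread whose lowest array, replicate 1, lay just above the E11.5 arrays at 4.44 to 4.82. By E13.5 Comp stood at 8.49 to 9.11.

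The leucine-rich matrix proteins Chad and Prelp had no single step past the threshold, but their changes from E10.5 to E13.5, 1.86 ± 0.15 and 2.05 ± 0.09, were called. Ucma, a secreted protein of the growth plate, was not called in any limb comparison. Its 38 limb values of E10.5 to E13.5 lay between 4.24 and 4.82.

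The genes that supply sulfated sugar chains were split. Papss2, which makes the activated sulfate donor, was early, with 4.50, 4.56, 4.42, 4.12 and 4.95 at forelimb E10.5 and 6.72, 7.10, 7.01 and 7.17 at E11.5. The groups were far apart, and the rise was 2.49 ± 0.15 (adjusted p = 5.2e-17 in limma). The mean of its probe sets was highest at E12.5 in both limbs, but 1 of its 4 probe sets was flat in forelimb (3.57 at E10.5 and 3.59 at E13.5) and another was highest at E13.5 (10.06). Csgalnact1, which starts chondroitin sulfate chains, rose in the middle step by 1.33 ± 0.18. The sulfotransferases Chst11 and Chst3 and the sulfate transporter Slc26a2 had no called forelimb step. From E10.5 to E13.5 they differed by 0.88 ± 0.09, 0.15 ± 0.10 and 0.46 ± 0.08.

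Of the membrane and regulatory members, Trpv4, a calcium channel, was late, with 5.13 to 5.32 at forelimb E12.5 and 6.37 to 6.78 at E13.5 (1.29 ± 0.14). Creb3l2, a transcription factor for the secretion of matrix proteins, and Wwp2, a ubiquitin ligase whose intron holds a cartilage microRNA, were called over the whole interval, at 1.38 ± 0.08 and 1.32 ± 0.07. The Wwp2 average covers a split between its 6 probe sets. From forelimb E10.5 to E11.5 the brightest moved from 8.94 to 10.31, and others from 8.02 to 9.46 and from 5.80 to 7.68. Another moved from 5.34 to 6.07, whereas the remaining ones read 4.70 and 4.77, and 3.67 and 3.83. Itga10, a collagen-binding integrin, differed by 1.00 ± 0.10 over the whole interval, which before rounding was just under the 2-fold threshold.

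The same list rose in the hindlimb, with fewer members called at the earliest step. Between E10.5 and E13.5, 27 members were called higher and none lower (background 5.99% and 5.16%, median change 2.73), and 0 were lower at an unadjusted p under 0.05. The 3 steps called 11, 13 and 17 higher, against a background of 1.95%, 0.583% and 1.55%, and the medians were 0.35, 0.68 and 1.06. At an unadjusted p under 0.05, 1 and 1 members were lower at the later 2 steps, where limma called none (background 0.242% and 0.396%). Hapln1 was the single member called lower at any hindlimb step, the earliest one, with a difference of -1.59 ± 0.17 (background 0.368%). By class, 11 members were early in the hindlimb, 7 middle, 5 late and 10 without a called step, and 23 had the same class in both limbs. The 6 members that were early in the forelimb and middle in the hindlimb were Col11a2, Acan, Matn1, Epyc, Scrg1 and Susd5, with the middle step of Col11a2 lost in 6 of 10 fits without 1 array (0.96 to 0.99). The 3 that went from middle to late were Hapln1, Comp and Snorc, and Trpv4 had no called hindlimb step. No member had an earlier class in the hindlimb than in the forelimb. The classes set calls side by side and are no test of a difference between the limbs. Without hindlimb E10.5 replicate 3, 10 members were called higher at the earliest step. Without hindlimb E12.5 replicate 1, the array that the members placed youngest at that stage by age, 15 were called at the middle step and 16 at the last.

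With all arrays in the fit, Cytl1 and Mgp were the members called at all 3 hindlimb steps. The earliest step of Cytl1 was 0.99 and not called without hindlimb E10.5 replicate 3, and the middle step of Mgp was lost in 4 of 10 fits without 1 array (0.93 to 0.99), those without hindlimb E11.5 replicate 1 or 4 or E12.5 replicate 2 or 3. Mgp read 4.48, 4.67, 5.15 and 4.90 in hindlimb E10.5, 6.89, 7.10, 7.15, 6.96 and 7.12 at E11.5, 7.44, 8.4, 8.37, 8.05 and 8.02 at E12.5, and 9.69, 10.17, 9.61, 10.29 and 9.95 at E13.5. The stages followed each other without overlap, by 2.24 ± 0.21, 1.01 ± 0.20 and 1.89 ± 0.20. Matn4 read 5.34, 3.72, 5.21 and 5.03 in hindlimb E10.5 and 7.52, 8.20, 8.42, 7.89 and 8.37 at E11.5. As in the forelimb this was its largest step, 3.25 ± 0.22. Cnmd moved from 3.23 to 4.31 to 7.35 to 7.91 over the same interval (3.97 ± 0.32). Papss2 rose at both of the earlier steps, by 1.96 ± 0.15 and 1.5 ± 0.14, and Csgalnact1 at both of the later ones, by 1.03 ± 0.17 and 1.32 ± 0.17. The earlier of these Csgalnact1 calls was lost in 5 of 10 fits without 1 array (0.95 to 0.99), those without hindlimb E11.5 replicate 1 or 4 or E12.5 replicate 2, 3 or 5.

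Direct comparison of the limbs at the same stage found 2, 4, 6 and 3 members higher in the forelimb over the stages from E10.5 to E13.5, and none lower in limma. The background of genes called higher in the forelimb was 0.418%, 0.313%, 0.462% and 0.236%, and of genes called lower 0.148%, 0.0989%, 0.044% and 0.0495%. At an unadjusted p under 0.05, 1, 1, 0 and 0 members were lower. The medians of the member differences were 0.12, 0.44, 0.46 and 0.41. At E13.5 the 5 forelimb arrays lay above the 5 hindlimb arrays for 15 of 33 members and below for none, which held for 3.86% and 4.90% of all genes.

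These counts depended on single arrays: leaving out 1 array at a time gave 1 to 3, 1 to 7, 3 to 8 and 1 to 5 members at the 4 stages. At E10.5, 1 member was called without forelimb replicate 1. At E11.5 the count was 7 without forelimb replicate 1, 2 without forelimb replicate 2 and without hindlimb replicate 1 or 4, and 1 without forelimb replicate 3 or 4. At E12.5 it was 3 without hindlimb replicate 1. At E13.5 it was 1 without forelimb replicate 4 or 5 or hindlimb replicate 1 or 3, and 5 without hindlimb replicate 4. With each comparison fitted on its own groups, 0, 1 and 0 members were called at E10.5, E11.5 and E12.5. With replicate number added as a block to these fits, 0 were called at both E10.5 and E11.5 and 4 at either later stage. That block would pair the limbs if a number marks an embryo, which the labels do not say.

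At E10.5 the members called higher in the forelimb were the fibril genes Col2a1 (1.09 ± 0.18, adjusted p = 1.66e-05 in limma) and Col9a1 (1.27 ± 0.13). Col2a1 read 8.62, 8.89, 8.90 and 9.10 in the hindlimb, all below the forelimb range of 9.62 to 10.35. At E11.5 those called were Matn1 (1.71 ± 0.30), Epyc (1.47 ± 0.27), Matn4 (1.33 ± 0.22) and Acan (1.17 ± 0.24). With 1 array left out, the call was lost in 8 of 9 fits for Acan, 5 of 9 for Epyc and 2 of 9 for Matn1, and never for Matn4. Matn1 read 3.83, 4.06, 4.71, 4.49 and 4.53 in hindlimb E11.5 and 5.16, 6.13, 6.62 and 6.23 in forelimb, without overlap. At E12.5 the differences called were those of Epyc (1.70 ± 0.26), Matn1 (1.52 ± 0.28), Mgp (1.47 ± 0.20), Comp (1.27 ± 0.20), Acan (1.18 ± 0.22) and Cytl1 (1.13 ± 0.20). Without hindlimb E12.5 replicate 1, the values for Matn1, Acan and Cytl1 were 1.15, 0.92 and 0.89, and none of the 3 was called. Over all fits without 1 array the call was lost in 4 of 10 for Acan, 3 of 10 for Matn1 and 1 of 10 for Cytl1, and in none for Epyc, Mgp and Comp. Epyc read 4.40, 6.28, 6.30, 6.72 and 6.81 in hindlimb E12.5 and 7.03, 7.94, 7.73, 8.24 and 8.05 in forelimb, again without overlap, and the low hindlimb value belongs to replicate 1. At E13.5 the called members were the late gene Matn3 (1.15 ± 0.14), Mgp (1.09 ± 0.20) and Snorc (1.03 ± 0.21), of which Mgp was lost in 4 of 10 fits without 1 array, Snorc in 9 of 10 and Matn3 in none. Matn3 read 6.66, 7.22, 7.06, 7.13 and 6.56 in hindlimb, all below the forelimb range of 7.85 to 8.41. Epyc at E13.5 differed by more than these, 1.25 ± 0.26, but its adjusted p of 0.00106 missed the threshold. These lists of calls do not test whether a member differed more at one stage than at another.

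**Figure D3:**
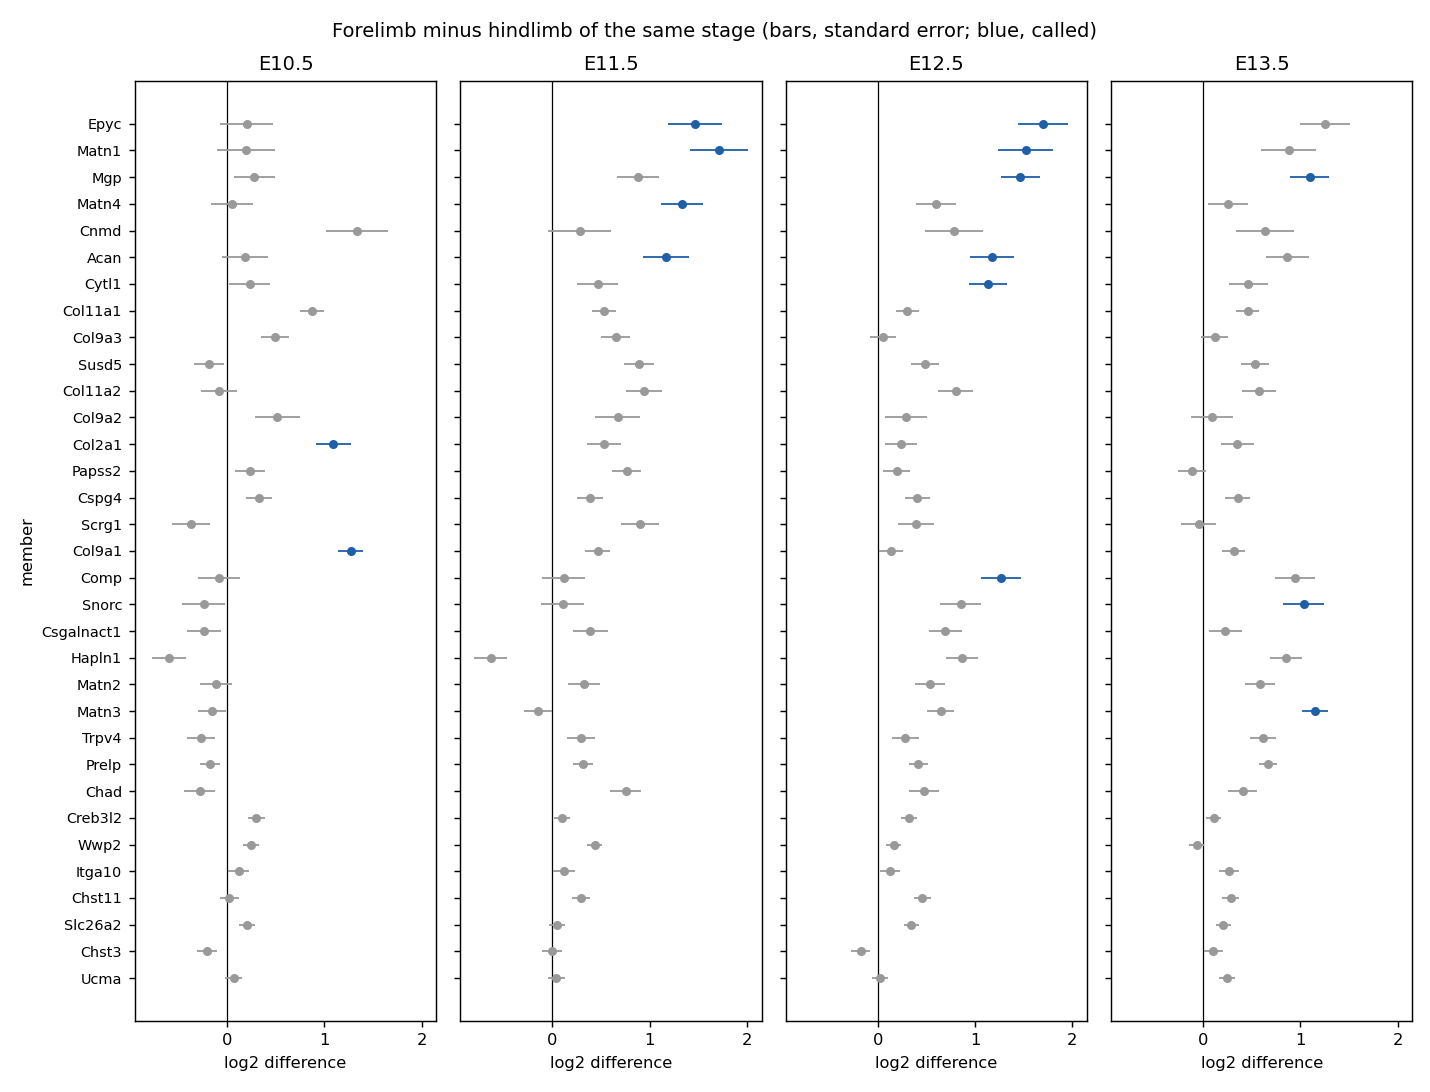
Forelimb minus hindlimb in log2 intensity for the 33 members at E10.5, E11.5, E12.5 and E13.5 (points, estimates; bars, standard errors; blue, called at 2-fold and adjusted p under 0.001). Blue points number 2, 4, 6 and 3, and all lie to the right of 0.

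Promoter windows are shown for Acan, Matn1 and Epyc, because these were the members called higher in the forelimb at both E11.5 and E12.5 with all arrays in the fit. RefSeq (GRCm38.p6) windows of 300 bases, from 250 before the start to 50 after it, were at hand for 24 of the 34 members, 28 windows in all. The capitals mark AACAAT or its reverse complement ATTGTT, a core to which SOX proteins bind, and the rest is in lower case, 5′ to 3′ on the gene's strand.

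Acan, chr7:79052976-79053275, plus strand: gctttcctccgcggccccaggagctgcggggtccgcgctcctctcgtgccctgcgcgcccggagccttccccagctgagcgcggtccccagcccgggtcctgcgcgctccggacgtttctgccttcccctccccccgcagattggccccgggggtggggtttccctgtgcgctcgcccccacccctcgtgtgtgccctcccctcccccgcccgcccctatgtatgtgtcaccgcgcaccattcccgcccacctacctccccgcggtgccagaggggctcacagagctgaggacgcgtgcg
Matn1, chr4:130944135-130944434, plus strand: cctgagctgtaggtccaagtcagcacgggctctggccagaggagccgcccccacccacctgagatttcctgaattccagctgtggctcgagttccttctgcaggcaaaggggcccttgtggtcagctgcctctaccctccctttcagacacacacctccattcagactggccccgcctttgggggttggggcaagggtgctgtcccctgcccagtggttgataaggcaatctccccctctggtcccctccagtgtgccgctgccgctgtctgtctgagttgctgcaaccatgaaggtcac
Epyc, the first start, chr10:97643818-97644117, plus strand: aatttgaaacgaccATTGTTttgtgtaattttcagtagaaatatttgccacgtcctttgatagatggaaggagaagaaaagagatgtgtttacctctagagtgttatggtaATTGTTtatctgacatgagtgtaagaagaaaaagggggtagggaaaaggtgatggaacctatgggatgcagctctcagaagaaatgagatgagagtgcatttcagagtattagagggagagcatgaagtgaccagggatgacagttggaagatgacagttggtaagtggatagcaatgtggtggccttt
Epyc, the second start, chr10:97646853-97647152, plus strand: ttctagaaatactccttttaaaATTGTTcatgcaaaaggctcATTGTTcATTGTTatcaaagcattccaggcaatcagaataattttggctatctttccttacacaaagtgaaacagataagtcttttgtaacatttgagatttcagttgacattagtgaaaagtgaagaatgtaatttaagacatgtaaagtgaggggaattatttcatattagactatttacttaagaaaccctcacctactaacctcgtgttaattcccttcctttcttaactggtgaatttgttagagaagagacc

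The Epyc windows held 2 and 3 copies, and the windows of Acan and Matn1 held none. AACAAT, on either strand, stood in 4 of the 28 member windows (14.3%) and in 10.7% of 32841 windows of the same length. TATAAA, on either strand, stood in 3 of 28 (10.7%) and in 13.6% of all windows. The GC content of the 4 windows ranged from 32.3% in the second of Epyc to 74.0% in that of Acan. A match describes letters, not a bound site.

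In time, the hindlimb passed a level set by the forelimb later than the forelimb did, for every member that could be placed. For 29 members the forelimb mean rose by 1 or more between E10.5 and its highest stage, and the day at which it passed the middle of that rise was read from lines through the group means. This midpoint ranged from day 11.14 for Col9a1 to 13.03 for Hapln1, with a median of 11.99, and class medians of 11.65 for early, 12.65 for middle and 12.73 for late members. The classes overlapped, spanning 11.14 to 12.41, 11.99 to 13.03 and 12.69 to 12.90, so they do not give the order of the midpoints. Wwp2, without a called step, had a midpoint of 11.20. The hindlimb reached the same level later for all 29 members, by 0.21 to 0.92 day with a median of 0.50 day. Members and level were both chosen by the forelimb, so a delay and a smaller hindlimb rise cannot be told apart. From E10.5 to E13.5, for example, Matn3 rose by 2.64 in forelimb and 1.34 in hindlimb, and Col2a1 by 3.08 and 3.82. The longest lags were those of Mgp (0.92 day), Epyc (0.77) and Wwp2 (0.75), and the shortest those of Matn2 (0.21), Col11a1 (0.24) and Creb3l2 (0.26). Early members had both long and short lags, such as Matn1 at 0.70 and Matn4 at 0.27. The members share the same arrays, so their lags are not independent of each other.

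**Figure D4:**
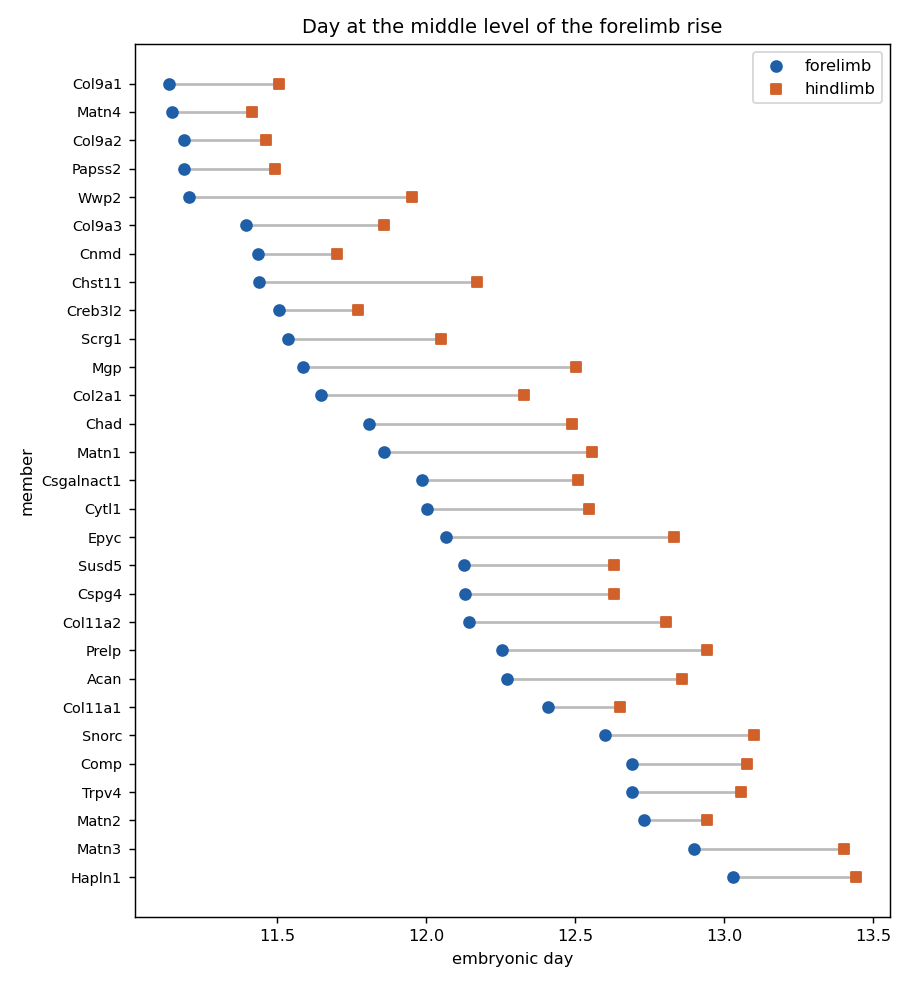
Day at which the forelimb passed the middle of its rise and day at which the hindlimb reached the same level, for 29 members. The hindlimb day is the later for every member, by 0.21 day for Matn2 up to 0.92 day for Mgp.

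Each limb array was also given the day at which the forelimb means of all members came closest to it. The hindlimb E11.5 arrays were placed at 11.13 ± 0.10 (SD, n = 5), those of E12.5 at 11.87 ± 0.27 and those of E13.5 at 13.12 ± 0.13. They were thus 0.374, 0.634 and 0.376 day behind their labels. Here too, a delay and a smaller hindlimb rise cannot be told apart. The scale was built from the means of the forelimb arrays, so their own ages lie near their labels by construction and show only their spread, at 11.53 ± 0.15 (n = 4), 12.48 ± 0.27 (n = 5) and 13.47 ± 0.04 (n = 5). The scale ends at the outer forelimb stages, so the 4 hindlimb E10.5 arrays, all placed at the earlier end, have only an upper bound. Among the E12.5 arrays, replicate 1 of either limb was placed youngest, at 12.03 in forelimb against 12.44 to 12.69 for the others, and at 11.40 in hindlimb against 11.91 to 12.05. Without hindlimb E12.5 replicate 1 the lag at that stage was 0.49 day.

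**Figure D5:**
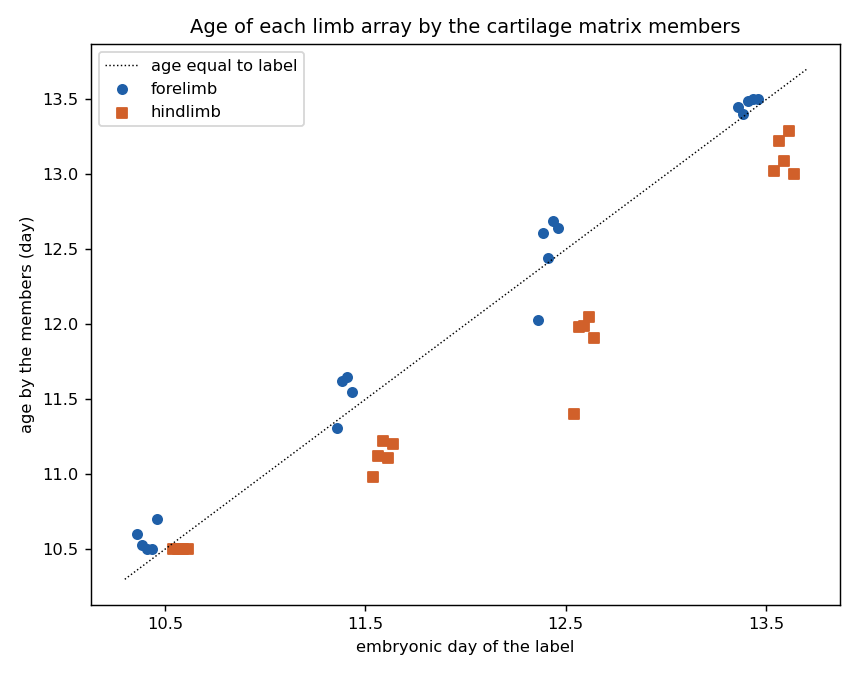
Age of each of the 38 limb arrays by the cartilage matrix members (days) against the day of its label, with points of a group set slightly apart sideways and a dotted line where both are equal. From E11.5 on the hindlimb arrays lie below the line of equality, and the youngest hindlimb E12.5 array, replicate 1, is at 11.40.

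Forelimb was also set against hindlimb of the next stage. Between forelimb E11.5 and hindlimb E12.5 no member was called in limma in either direction (background 0.192% and 0.0879%), and 1 was higher and 13 lower at an unadjusted p under 0.05. The differences ran from -0.95 ± 0.21 for Cytl1 to 0.21 ± 0.08 for Slc26a2, and 2 members were called lower in the forelimb when hindlimb E12.5 replicate 1 was left out. Forelimb E10.5 was lower than hindlimb E11.5 for 6 members (background 0.747%), namely Matn4 (-3.20 ± 0.21), Cnmd (-2.64 ± 0.30), Mgp (-1.96 ± 0.20), Col9a2 (-1.74 ± 0.22), Papss2 (-1.73 ± 0.14) and Col9a3 (-1.37 ± 0.14). All 6 are early members. Forelimb E12.5 was lower than hindlimb E13.5 for 7 members (background 0.786%), led by Matn2 (-2.08 ± 0.15) and Comp (-1.87 ± 0.20), with Col11a1, Acan, Hapln1, Epyc and Matn3. The call for Epyc was lost in 8 of 10 fits without 1 array and that for Matn3 in 3 of 10. Without forelimb E12.5 replicate 1, 4 members were called there.

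Tests of the stage steps themselves separated the limbs for 1 member. From E11.5 to E12.5, Hapln1 rose in the forelimb by 1.51 and differed by 0.01 ± 0.16 in the hindlimb, and the difference of the steps was -1.5 ± 0.24 (adjusted p = 0.000608 in limma, background 0.022%). Hindlimb Hapln1 read 6.75, 6.64, 6.51, 6.68 and 6.67 at E11.5, 6.11, 6.67, 6.74, 7.09 and 6.70 at E12.5 and 8.56 to 9.0 at E13.5, so that its earlier 2 stages overlapped. The call was lost in 15 of 19 fits that left out 1 array, in the fit on its own 4 groups, with the 38 limb arrays alone, after quantile normalization, with a floor at the 20th percentile of all values, with the probe set of highest mean and without the 2 arrays of conflicting labels. The adjusted p ranged from 7.67e-07 to 0.0282 over all alternatives in limma, and the difference was below 0 in all of them. No member was called for the steps from E10.5 to E11.5 or from E12.5 to E13.5 (background 0.214% higher and 0.181% lower, and 0.0495% and 0.033%). At an unadjusted p under 0.05, 3 and 2 members were higher and 12 and 2 lower in these steps. The largest such differences were for Matn1 (-1.51 ± 0.42, adjusted p = 0.0274 in limma), Matn4 (-1.28 ± 0.31, 0.00883) and Scrg1 (-1.27 ± 0.27, 0.00299), all from E10.5 to E11.5.

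The whole embryo, which contains vertebrae, ribs and skull as well as limbs, acquired most of the same transcripts. Between E10.5 and E13.5, 27 members were called higher in whole embryo and none lower (background 9.88% and 1.3%, 1 lower at an unadjusted p under 0.05), with a median change of 2.37. Matn1 showed the largest rise, from 4.05 and 4.29 to 10.91 and 10.64, followed by Acan, from 4.97 and 5.05 to 10.66 and 10.34. Col2a1 read 8.27 and 8.79 at E10.5, 8.68 and 9.17 at E11.5, 10.41 and 10.40 at E12.5, and 12.10 and 11.94 at E13.5. The E12.5 and E13.5 values lay above those of the earlier stages. Whole embryo Hapln1 read 7.04 and 6.87 at E10.5, 5.39 and 5.82 at E12.5 and 8.46 and 8.39 at E13.5, so that E12.5 was the lowest of these 3 stages.

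At E9.5, where both tissues were in the same set of arrays, no member was called in limma between forelimb and whole embryo in either direction (background 2.08% and 1.61%), and 1 was higher and 2 lower at an unadjusted p under 0.05. The largest difference was 0.72 ± 0.40 for Matn1. At later stages, where set and tissue cannot be told apart, the forelimb was higher for 2 members at E10.5, where 1908 of all 18194 genes were, and for 13, 16 and 5 at the later stages (background 11.7%, 8.52% and 5.54%). Scrg1 alone was called lower, at E10.5, with a difference of -1.13 ± 0.24 (background 3.44%, and 3.64%, 5.44% and 8.12% at the later stages), a call lost without either whole embryo E10.5 array. At an unadjusted p under 0.05 in limma, 6, 0, 0 and 5 members were lower from E10.5 to E13.5. Matn4 was higher by 4.33 ± 0.28 at E11.5, with forelimb arrays at 9.20 to 9.56 and whole embryo arrays at 5.15 and 5.01. Without whole embryo E13.5 replicate 2, 2 members were called higher in forelimb E13.5.

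Hindlimb was higher than whole embryo for 1, 6, 9 and 3 members (background 9.77%, 11.8%, 7.11% and 6.1%) and lower for 1 at E10.5 and 4 at E13.5 (background 3.41% and 8.35%). At E11.5 and E12.5 none was called lower in limma (background 3.95% and 5.43%), and 2 and 1 were lower at an unadjusted p under 0.05. At E10.5 the higher member was Hapln1 (1.28 ± 0.22) and the lower one Cnmd (-2.02 ± 0.41). The sign for Hapln1 turned with its brightest probe set alone, and the call for Cnmd was lost without either whole embryo array. The 4 lower members at E13.5 were Matn1 (-1.78 ± 0.37), Snorc (-1.55 ± 0.27), Acan (-1.43 ± 0.30) and Comp (-1.13 ± 0.27). With 1 array left out, the call was lost in 5 of 7 fits for Comp, 2 of 7 for Matn1, 1 of 7 for Acan and none for Snorc. Without whole embryo E13.5 replicate 1 or replicate 2, 1 and 2 members were called lower and 1 higher in both cases.

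The change over time, in which a constant offset between the sets cancels, was larger in limbs than in whole embryo for 4 members and smaller for none (background 2.36% and 9.71%, 4 smaller at an unadjusted p under 0.05 in limma). They were Scrg1 (1.84 ± 0.32, adjusted p = 5.79e-06 in limma), Matn4 (1.55 ± 0.36), Csgalnact1 (1.25 ± 0.29) and Papss2 (1.13 ± 0.24). The offset between the sets was not constant in every measure, so a part of it may remain here. Gapdh 3′ exceeded 5′ by 2.63 and 2.56 in whole embryo E10.5 and by 2.02 and 1.92 in whole embryo E13.5. In the 38 limb arrays this difference spanned -0.10 to 0.16. Papss2 reached 6.43 and 6.39 in whole embryo E13.5, where the limb arrays of that stage spanned 7.31 to 7.73 in forelimb and 7.6 to 7.81 in hindlimb. The count was 2 without whole embryo E10.5 replicate 1 and 1 without E10.5 replicate 2 or either E13.5 array, and it was 1 after quantile normalization and 1 with arrays centred on their median.

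Other genes of the chondrocyte programme moved less uniformly. Among 23 measured chondrogenic regulators, 5 were called higher and 1 lower in forelimb from E10.5 to E13.5 (background 5.43% and 5.13%), with a median change of 0.31, and 8 were higher in hindlimb (background 5.99%). Sox9 differed by 0.05 ± 0.10 in forelimb and rose by 1.17 ± 0.10 in hindlimb, where it was called at the earliest step, by 1.18 ± 0.10. At E10.5 the forelimb mean of Sox9 exceeded that of hindlimb by 0.86 ± 0.10 (adjusted p = 2.76e-08 in limma), under the 2-fold threshold, and at E11.5 by 0.01 ± 0.10. Sox6 rose in both limbs, by 1.17 ± 0.12 and 2.03 ± 0.13, and Sox5 was called in neither, with -0.34 ± 0.08 and 0.33 ± 0.09. Mef2c (3.68) and Runx3 (1.49) had the largest rises among the regulators, and Prrx2 fell by 1.72 on the log2 scale. Of 20 growth plate signals, 7 were called higher and 1 lower, including Gdf5 (2.92), Npr2 (2.39) and Nog (2.22).

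The lists for building and modifying matrix rose in part, to be read against the 5.43% of all genes called higher in forelimb and 5.13% called lower. In the list for glycosaminoglycan synthesis and sulfation, 4 of 34 genes were called higher in forelimb and 0 lower in limma (4 lower at an unadjusted p under 0.05, median 0.36). The largest changes were those of Sulf1 (2.06), which removes sulfate from heparan sulfate rather than adding it, Dsel (1.48) and Csgalnact2 (1.36). Of the genes of collagen folding and processing, 14 of 28 were called higher and 0 lower (0 lower at an unadjusted p under 0.05, median 0.99), led by Lox (3.46), which crosslinks collagen, Creb3l1 (3.11) and Sec24d (2.43), a coat protein for secretion. Of the other fibrillar and beaded matrix genes, 15 of 18 were called higher (median 2.73), led by Ogn (7.88), Col6a1 (4.95) and Lum (4.55). Of the condensation genes, 6 of 15 were called higher, with Tnc (3.65), Thbs1 (2.11) and Fbn2 (1.66) in front. Of the genes of chondrocyte hypertrophy, 6 of 10 were called higher in forelimb and 3 in hindlimb (background 5.99%), led by Ibsp (3.77), Panx3 (1.87) and Mmp9 (1.41). Ibsp, a protein of bone and hypertrophic cartilage, was called at the last forelimb step alone, by 3.69 ± 0.22.

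The genes whose pattern over the 38 limb arrays was most like the mean of the members, each first scaled to the same spread, were Pmp22 (r = 0.988), Lmna (0.988), Fkbp9 (0.988), Sec24d (0.987), Kdelr3 (0.986), Crtap (0.986), Emilin3 (0.985), Col5a1 (0.984), Cd9 (0.984) and Spats2l (0.983). The arrays share their stages, and these values are a description. Each of the 33 members was also set against the mean of the others over the same arrays, and r was highest for Cytl1 and Cspg4 (0.987 and 0.987) and lowest for Hapln1 (0.50), Ucma (-0.01) and Chst3 (-0.03). Sec24d and Crtap belong to the collagen folding and processing list.

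Markers of other cell types moved with the members, and their part in the members' changes was not tested. Here too 5.43% of all genes were called higher and 5.13% lower. In forelimb from E10.5 to E13.5, 17 of 19 skeletal muscle markers were called higher, and their summed level was 9.52 to 10.89 at E10.5 and 15.68 to 15.82 at E13.5, with Myh3 (8.12), Myl1 (7.96) and Actc1 (7.67) in front. Of the tendon markers 8 of 9 were called higher, their summed level being 9.23 to 9.56 at E10.5 and 12.88 to 13.15 at E13.5, with Kera (6.04), Tnmd (4.97) and Thbs4 (4.68). Joint, osteoblast, Schwann cell, pericyte and macrophage markers were called higher in 3 of 10, 4 of 7, 5 of 8, 5 of 11 and 7 of 10 cases. Those among the 3 largest of their lists include Sfrp2 (1.63), after Gdf5 and Sulf1, for joint, and Col1a1 (3.64) and Phex (2.92), after Ibsp, for osteoblast. Fabp7 (3.62) led for Schwann cell, Abcc9 (3.75) for pericyte and Mrc1 (2.76) for macrophage. In the other direction, 9 of 10 erythroid and 8 of 15 limb mesenchyme markers were called lower, among them Hemgn (-5.75), Hbb-bh1 (-4.93), Lhx9 (-2.61) and Hand2 (-2.06).

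Endothelium had 0 of 10 markers called in limma (5 higher and 1 lower at an unadjusted p under 0.05), with the largest change at 0.63 for Erg. Neuronal markers had 1 higher (Nefl, 1.55) and 1 lower (Tubb3, -1.36) of 15, and epidermis 4 higher and 3 lower of 11, with Krt15 at 3.11 and Cldn6 at -2.69. The list for notochord, another tissue that makes Col2a1 and Acan, had 1 higher (Nog) and 3 lower of 7, with Shh at -2.84. The limb buds were cut away from the body, and whether other tissue came with them was not tested. This list is not read as a level of notochord. Nog is also a listed growth plate signal and Krt8 a listed epidermis marker, and the paper places Shh in a restricted cluster of limb cells. The summed level of the list in forelimb was 9.60 to 9.72 at E10.5 and 8.26 to 8.49 at E13.5. That of the members was 11.55 to 12.01 and 14.65 to 14.96, and a relation between these levels was not tested.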

How the data were processed

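RNA of 51 wild-type mouse samples, each from 1 embryo, was hybridised to Affymetrix Mouse Genome 430 2.0 arrays after 2 rounds of amplification and biotin labelling. The authors deposited linear intensity values per probe set, made with RMA at default settings, and corrected a blemish on 1 whole embryo E12.5 array from the replicate median. RMA normalizes all arrays together, so a shift shared by most genes is removed. From the deposited intensity the log2 was taken, without a pseudocount. Of 45101 probe sets, 34958 have 1 gene symbol, 932 have several and 9211 have no entry in the probe table. Probe sets with 1 symbol were averaged to 18194 genes, of which 9182 rest on 1 probe set.

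Groups came from sample titles, also for 2 arrays with conflicting labels. The 14 groups of limb or whole embryo by stage were fitted in 1 linear model (limma 3.58.1 in R 4.3.3, 37 residual degrees of freedom) with moderated variances and Benjamini-Hochberg adjustment over all genes. A gene was called at a 2-fold change or greater and an adjusted p under 0.001. Errors are standard errors of the fit unless named SD. The fitting code was tested on simulated data. The number of arrays limits the precision, and the 2 whole embryo arrays per stage limit it most. Correlations, midpoints and ages were computed in Python 3.11.15 with numpy 2.4.6 and pandas 2.3.3, and figures drawn with matplotlib 3.10.9. Promoter sequences came from RefSeq.

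All members are named. Of every other list the text names genes from the 3 called ones of largest change between forelimb E10.5 and E13.5, or the largest where none is called. Not all 3 are named for each list of cell type markers. Sox9, Sox5 and Sox6 and the 10 genes most like the members' mean are always named. The members and lists were chosen with earlier results of these data known. Alternatives changed the call rule, the arrays in the fit, the normalization, a floor, the probe sets, the filter, the variance prior and the replicate block, and left out each array in turn.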

Additional observations from a re-analysis of the deposited data

Results flagged for a closer look

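Within groups of 4 or 5 arrays, a sample whose gap to its nearest neighbour took up most of the range of its group (Dixon's test at 95%) was found in 30 of 272 cases, or 11%, where chance gives about 5%. Of these, 15 were values of hindlimb E12.5 replicate 1. The fibril collagens and collagen IX read low on it, with Col2a1 at 11.16 against 11.72 to 11.81, Col9a1 at 10.95 against 11.34 to 11.40, Col9a3 at 6.62 against 7.42 to 7.57, Col11a1 at 8.94 against 9.63 to 9.75 and Col11a2 at 4.96 against 5.46 to 5.56, where each range is that of the other 4 arrays. The proteoglycan and matrilin genes were Acan at 5.63 against 6.75 to 7.10, Matn1 at 5.21 against 6.82 to 7.38, Matn4 at 9.17 with the others up to 10.21 and Epyc at 4.40 against 6.28 to 6.81. The others were Scrg1 at 4.68 against 5.95 to 6.40, Papss2 at 7.06 against 7.81 to 8.0, Csgalnact1 at 5.32 against 6.19 to 6.37, Susd5 at 5.80 against 6.67 to 6.84 and Wwp2 at 6.71 against 6.94 to 7.01. By the members together this array had an age of 11.40 day, against 11.91 to 12.05 for the other 4.

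The other 15 such values were scattered over arrays. At E10.5, Matn3 read low on forelimb replicate 5 (5.19 against 5.45 to 5.55), Mgp on forelimb replicate 3 (4.27 against 5.16 to 5.43) and Itga10 on forelimb replicate 2 (4.57 against 4.84 to 4.90). In hindlimb E10.5, Scrg1 was high on replicate 3 (4.40 against 4.02 to 4.05) and Chst3 on replicate 1 (5.87 against 5.37 to 5.43). At E11.5, Snorc was low on forelimb replicate 1 (4.30 against 4.90 to 5.00), Itga10 high on forelimb replicate 3 (5.14 against 4.65 to 4.71) and Wwp2 low on hindlimb replicate 1 (6.40 against 6.59 to 6.66). Mgp was low on forelimb E12.5 replicate 1 (8.70 against 9.64 to 9.85). Forelimb E13.5 replicate 2 was low for Col11a2 (7.29 against 7.61 to 7.71), Cspg4 (8.17 against 8.45 to 8.54) and Susd5 (8.16 against 8.56 to 8.68), and forelimb E13.5 replicate 1 for Chst3 (5.14 against 5.48 to 5.62). In hindlimb E13.5, Col11a1 was low on replicate 5 (10.95 against 11.19 to 11.26) and Matn4 on replicate 3 (10.19, with the others up to 10.60).

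Differences between groups in the same contrast passed the test of the difference itself for 5 members. The Hapln1 step from E11.5 to E12.5 in hindlimb minus that in forelimb was -1.5, a call that was lost in 15 of 19 fits without 1 array. The change from E10.5 to E13.5 in limbs exceeded that in whole embryo by 1.84 for Scrg1, 1.55 for Matn4, 1.25 for Csgalnact1 and 1.13 for Papss2. Their count of 4 was 1 to 4 when 1 array at a time was left out.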

How the results depend on the processing

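Of the results that answer a comparison, mainly counts of members called, 418 values under other settings stayed near the reported value and 57 did not. With 1 array left out these numbers were 595 and 47. Near means within 1.5 times the reported count or, for a lag in days, a shift smaller than the SD over arrays or members. The cause of the shifts was not tested, except that the looser call rule and the smaller fits differ by construction. Of 264 calls of single members, quantile normalization lost 18, centring each array on its median 12, the probe set of highest mean 16, a floor at the 20th percentile 5, leaving out _x_at and _s_at probe sets 5, a trended robust variance prior 2, the filter at the median level 0, and leaving out the 2 arrays of conflicting labels 10. Fits on the groups of 1 comparison lost 39, and the 38 limb arrays alone lost 4 of 172. The sign turned for Hapln1 alone: by its probe set of highest mean, hindlimb minus whole embryo was -0.0879 at E10.5 (adjusted p = 0.734 in limma) and -0.1033 at E12.5 (0.678). Changes below the range of the dimmer probe sets cannot be seen on these arrays.

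With adjusted p under 0.05 and no fold threshold, forelimb E11.5 over E10.5 had 26 members higher and 2 lower, and the middle forelimb step 25 higher. The hindlimb steps had 17 higher and 2 lower, then 23 higher, and then 27 higher and 1 lower. Forelimb exceeded hindlimb for 7, 14, 19 and 15 members from E10.5 to E13.5 and was lower for 1, 1, 0 and 0. It was lower than hindlimb of the next stage for 17, 7 and 20 and higher for 1, 0 and 2. The step from E10.5 to E11.5 differed between limbs for 1 member upwards and 8 downwards. Against whole embryo, forelimb had 1 higher and 1 lower at E9.5 and 10 and 4 at E10.5. At the later stages it had 23, 28 and 15 higher and 0, 0 and 5 lower. Hindlimb had 4 higher and 3 lower at E10.5, 17 higher and 2 lower at E11.5, 14 higher and 0 lower at E12.5, and 7 higher and 12 lower at E13.5. The limb change exceeded the whole embryo change for 7 and was smaller for 4.

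Fitted on the groups of a single comparison, the middle forelimb step had 5 members higher, forelimb over hindlimb 0, 1 and 0 at E10.5, E11.5 and E12.5, and hindlimb over whole embryo 4 at E12.5. The difference of the limbs' steps had 1 member lower for E10.5 to E11.5 and 0 for E11.5 to E12.5. That last count was also 0 with the 38 limb arrays alone, after quantile normalization, with the floor, with the probe set of highest mean and without the 2 arrays of conflicting labels, which left 2 members higher in forelimb at E11.5. The count for E10.5 to E11.5 was 1 with the probe set of highest mean and with genes above the median level only. Quantile normalization gave 1 member higher and 0 lower in forelimb over whole embryo at E10.5, 8 late members in hindlimb, and 1 member for the limb change over the whole embryo change, which was 1 after centring and 2 with the probe set of highest mean. Hindlimb over whole embryo at E10.5 had 2 lower with that probe set and 2 higher without _x_at and _s_at probe sets.

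Leaving out 1 array at a time gave forelimb over hindlimb 1 to 3, 1 to 7, 3 to 8 and 1 to 5 members from E10.5 to E13.5. Forelimb was lower than hindlimb of the next stage for 0 to 2 at E11.5 and 4 to 9 at E12.5. The difference of the limbs' steps had 0 to 1 lower both for E10.5 to E11.5 and for E11.5 to E12.5. Against whole embryo, forelimb had 0 to 1 lower at E10.5 and 2 to 5 higher at E13.5, and hindlimb 0 to 1 lower at E10.5 and 1 to 4 higher and 1 to 5 lower at E13.5. The limb change exceeded the whole embryo change for 1 to 4, and hindlimb late members numbered 5 to 8, the 8 being without hindlimb E12.5 replicate 5. Without hindlimb E12.5 replicate 1, forelimb over hindlimb at E12.5 was 0.92 for Acan (adjusted p = 0.00326 in limma), 0.89 for Cytl1 (0.000772) and 1.15 for Matn1 (0.00179), none of them called.

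Forelimb and hindlimb share replicate numbers, but the labels do not say what a number marks. Over 18 pairs of the same number, the correlation of deviations from the group means ran from -0.11 to 0.35, with 16 above 0, among them all 10 at E12.5 and E13.5, and 9 over 0.1. Between other numbers 30 of 72 were above 0, from -0.335 to 0.231. Of 36 arrays with a counterpart, 12 correlated best with the array of their own number. No label ties a number to an embryo and not every pair was over 0.1, an arbitrary mark, so pairing was not assumed. The pairs of the same number, above all at the later stages, do hint at it, and the main fit would then ignore it. Limbs of the same embryo cannot be told apart from limbs of different embryos. With the replicate block, forelimb over whole embryo had 2 members lower at E10.5, the step from E10.5 to E11.5 differed for 1 member, and 5 of 264 single calls were lost. With the replicate block on the groups of 1 comparison, forelimb over hindlimb had 0 members at both E10.5 and E11.5 and 4 at either later stage, and 8 of 15 single calls were lost.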

Other observations

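By the members, replicate 1 was the youngest array of its group at E11.5 and E12.5 in both limbs. At E11.5 it stood at day 11.31 in forelimb, against 11.55 to 11.65 for the other arrays, and at 10.98 in hindlimb, against 11.11 to 11.22. At E12.5 it stood at 12.03 in forelimb, against 12.44 to 12.69, and at 11.40 in hindlimb, against 11.91 to 12.05. The labels do not say whether forelimb and hindlimb arrays of the same number came from the same embryo.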
